A study of Mus musculus with 15 samples.

Results

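Gad-positive nuclei rich in Prlr, the transcript of the prolactin receptor, were examined in single-nucleus RNA sequencing (snRNA-seq) of tissue enriched for the dorsal hippocampal formation (dHF) of 15 mice. The nuclei were selected on their own counts. A barcode entered with at least 1000 genes detected, at least 2 unique molecular identifiers (UMIs, each standing for 1 captured RNA molecule) of Gad1 plus Gad2, at most 1 UMI of Mecom, Pax3 and Gata3 together, at most 1 UMI of Otx2 and Otx2os1 together, and at least 2 UMIs of Prlr. Of 134019 barcodes, 124527 had at least 1000 genes, 14054 of those had the Gad UMIs, 11270 met every clause but the last and are called eligible Gad-positive nuclei here, and 644 met all of them. These 644 Prlr-rich nuclei were 5.71% of the eligible nuclei and 0.481% of all barcodes, and 15 to 110 of them came from each mouse. They are set against the 9968 eligible nuclei with no Prlr UMI (Prlr-free nuclei), and the 658 nuclei with 1 Prlr UMI were left out of that comparison.

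Prolactin is a pituitary hormone best known for lactation, and its receptor belongs to the class I cytokine receptors, which signal mainly through the kinase JAK2 and the transcription factor STAT5. In the brain the receptor is densest in hypothalamic nuclei and in the choroid plexus, the epithelium that secretes cerebrospinal fluid, and prolactin acting there takes part in maternal care. Gad1 and Gad2 encode the enzymes that make GABA, and Slc32a1 encodes the transporter that loads GABA into synaptic vesicles. Slc17a7 encodes the vesicular glutamate transporter of most forebrain excitatory neurons.

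The mice were wild-type C57BL/6J females in 3 groups. NP mice (n = 6) were virgin and nulliparous. Control RE mice (n = 4) had reproductive experience, the sequence of breeding, pregnancy, birth, lactation and contact with pups. Stress RE mice (n = 5) had the same experience with limited nesting material and daily separation from the litter during the later part of lactation. The age of these mice at collection was not given in the sources used here. Each mouse gave 1 library. Nuclei came from frozen bilateral punches, and such punches can carry tissue from beside the hippocampus. Libraries held 5789 to 12738 barcodes and 40602582 to 96211264 UMIs. The labels give 3 batches. All groups were represented by 2 mice in batch 2 and by 2 in batch 3, whereas batch 1 had 3 mice, none of them control RE. No 2 libraries had identical gene sums in any of 105 pairs. A barcode seen in more than 1 library was the barcode of 25 Prlr-rich nuclei, and no barcode was shared between Prlr-rich nuclei.

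Prlr (chromosome 15, 10177238 to 10349180, plus strand, GRCm38) reached up to 21 UMIs in a nucleus. Of the 644 nuclei, 254 had 2 Prlr UMIs, 147 had 3 and 243 had more than 3. Summed over the Prlr-rich nuclei of each mouse, Prlr stood at 107 to 296 CPM (counts per 1000000 UMIs) in NP mice, with a median of 214 CPM. In control RE mice it was 198, 199, 189 and 351 CPM, and in stress RE mice 151, 166, 323, 289 and 184 CPM. These levels follow from the selection and are a description, and the 3 groups overlapped. The selection also favoured deeply sequenced nuclei, with a median of 14456 UMIs in Prlr-rich and 10999 in Prlr-free nuclei. Just outside the threshold, nuclei with 1 Prlr UMI had a median of 12528 UMIs, and just inside it, nuclei with 2 had 14016.

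The genes of the rule were also followed in both classes as a description. Gad2 (chromosome 2, 22622205 to 22693874) stood at 302 CPM ± 82.7 (SD, n = 15 mice) in Prlr-rich and 233 CPM ± 40.6 in Prlr-free nuclei, and Gad1 at 261 ± 69.95 and 266 CPM ± 36.0. Gata3, which the rule limits but does not remove, was at 5.17 CPM ± 4.05 in Prlr-rich and 1.37 CPM ± 1.11 in Prlr-free nuclei, while Mecom, Pax3, Otx2 and Otx2os1 were each under 2.5 CPM on average in both.

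Checked against vesicular transporters and clusters, the Prlr-rich nuclei were not 1 cell type, and many did not sit with GABAergic nuclei. The 14054 Gad-positive nuclei with at least 1000 genes fell into 34 clusters, numbered here by how many Prlr-rich nuclei they hold, and the genes of the rule were left out of the clustering. Clusters with more Slc32a1 than Slc17a7 held 396 Prlr-rich nuclei (61.5%, 20 clusters), and clusters with more Slc17a7 than Slc32a1 held 248 (38.5%, 14 clusters). Of all eligible Gad-positive nuclei 48.6% lay in the first kind of cluster and 51.4% in the second. Gad2, the marker given with the working label, was at 0 in 163 of the 644 nuclei (25.3%), and 126 of those 163 lay in clusters 2, 4 and 10, which together held 155 Prlr-rich nuclei. The name GABAergic neurons is therefore not used for the whole set. The leading cluster held 166 nuclei (25.8%, 95% Wilson interval 22.5 to 29.3%, counting error only), and clusters 1 to 6 together held 478 of 644.

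**Figure D1:**
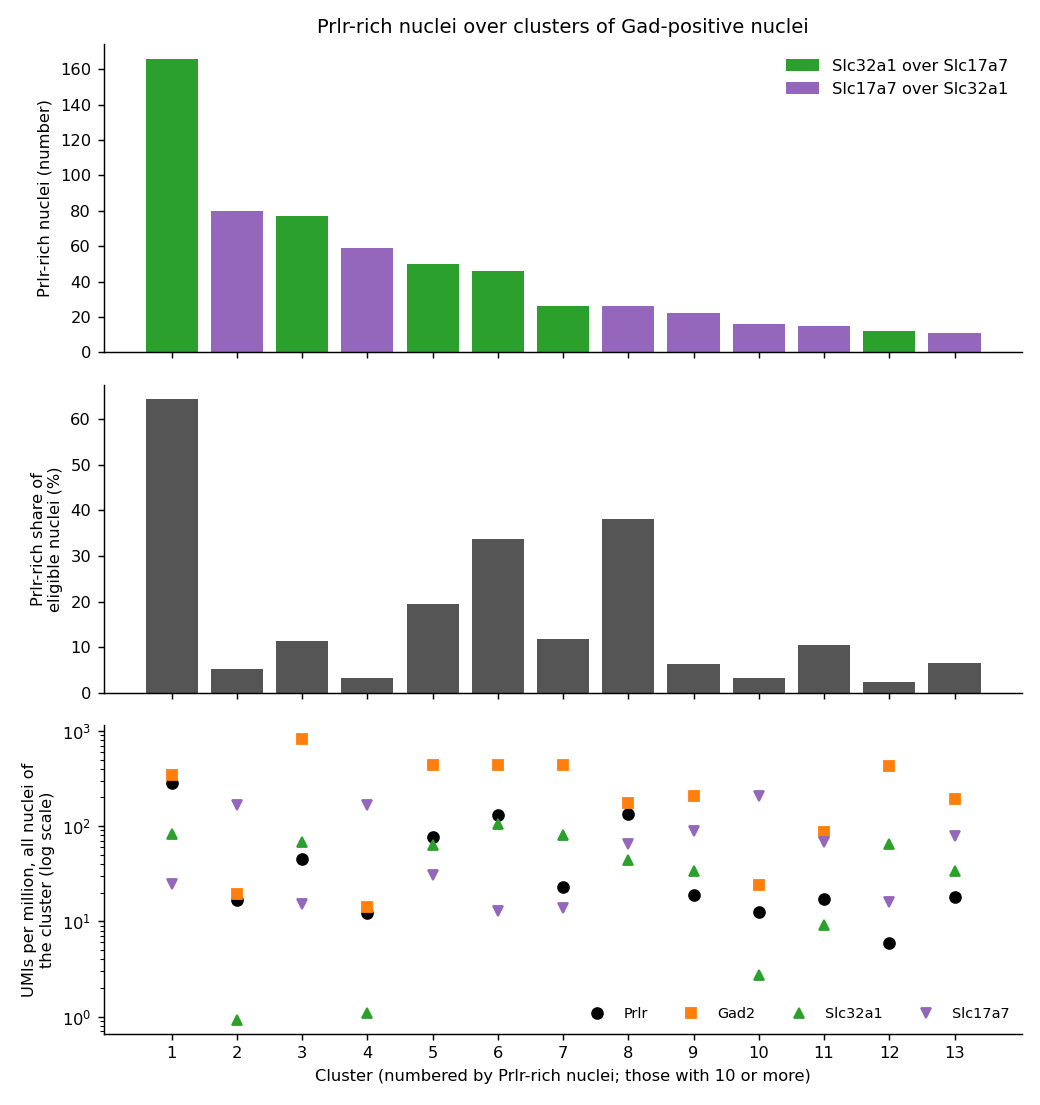
Prlr-rich nuclei in the 13 clusters that hold at least 10 of them, with the number of Prlr-rich nuclei (top, coloured by which vesicular transporter transcript is higher in the cluster), their share of the eligible nuclei of the cluster in percent (middle) and the pooled level of Prlr, Gad2, Slc32a1 and Slc17a7 in CPM on a log scale (bottom). Cluster 1 combines the most Prlr-rich nuclei (166) with the highest share (64.3%) and Prlr level (282 CPM), whereas clusters 2 and 4 have Gad2 at 19.4 and 14.1 CPM and Slc17a7 at 167 CPM.

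Cluster 1 was the densest in Prlr. Of its 258 eligible nuclei 64.3% were Prlr-rich and 77.1% had any Prlr UMI, and Prlr was at 282 CPM over all its 269 nuclei. Its leading genes by fold over other Gad-positive nuclei included Cpa6 (1066 CPM against 11.0), Col6a3, Ano1, Prdm16 (344 CPM against 8.24), Glp1r (83.3 CPM against 1.42), Col23a1, Zic4 (160 CPM against 4.83), Met and Ano2. Cpa6 encodes a carboxypeptidase, Prdm16 and Zic4 encode transcription factors and Glp1r encodes the receptor of glucagon-like peptide 1. Meis2 and Zic1, further transcription factor genes, stood at 1038 and 242 CPM. The cluster came mostly from 3 libraries. NP mouse 35, stress RE mouse 75 and stress RE mouse 77 held 40, 68 and 41 of its Prlr-rich nuclei, which is 149 of 166. NP mouse 27 held 8, stress RE mouse 43 held 4, the control RE mice held 4 in all, NP mouse 63 held 1 and 7 mice held none.

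Cluster 3 held Prlr-rich nuclei of every mouse, 2 to 8 each and 77 in all. Of its 671 eligible nuclei 11.5% were Prlr-rich, and Prlr was at 45.1 CPM. It led with Hapln1, Pde11a, Arhgef37, Nmbr, Sfta3-ps, Id2, B020031H02Rik, Lamp5, Mctp2 and Kcns3. Gad2 was at 813 CPM and Slc32a1 at 68.5 CPM against 15.1 CPM of Slc17a7. Lamp5, a marker of neurogliaform interneurons, was at 157 CPM against 10.1 CPM in the other Gad-positive nuclei, and Hapln1, a link protein of the extracellular matrix, at 281 CPM against 8.47. Lhx6, a transcription factor gene, was at 105 CPM in cluster 3. Cluster 20, with Lamp5 at 162 CPM and Lhx6 at 0 CPM, had Prlr at 5.26 CPM and 2 Prlr-rich nuclei.

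Clusters 5, 6 and 7 also had Slc32a1 above Slc17a7, and together held 122 Prlr-rich nuclei. In cluster 6, led by Ttn, 9330158H04Rik, Cpne9, Chrm2 and Cdh7, 33.8% of eligible nuclei were Prlr-rich and Prlr was at 129 CPM. In cluster 5, led by AW551984, Cdh23, Glra3, Baiap3 and Cbln2, the share was 19.6% at 77.1 CPM. The limits on Gata3, Pax3 and Mecom pass through these clusters, since only 136 of 272 nuclei of cluster 6, 255 of 570 of cluster 5 and 220 of 877 of cluster 7 were eligible.

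Clusters 2 and 4 held 80 and 59 Prlr-rich nuclei, but at a low rate of 5.35% and 3.36% of eligible nuclei. Cluster 2 led with Gm30551, Mylk3, Gm6999, Gpnmb, Arr3, Gm31615, Blnk, Bdnf, Ppl and Olfr46, of which Bdnf, the neurotrophin, was at 153 CPM against 25.9 elsewhere. Prox1, a transcription factor gene of dentate granule neurons, was at 293 CPM in cluster 2 and 365 CPM in cluster 4, where Chst9, Dsp and Tspan18 led. Slc17a7 was at 167 CPM in both and Slc32a1 at 0.924 and 1.10 CPM. Gad1 was at 163 and 152 CPM in these clusters and Gad2 at 19.4 and 14.1 CPM. Cluster 8 (26 Prlr-rich nuclei, 38.2% of its eligible nuclei) had the choroid plexus gene Ttr among its leading genes, at 814 CPM. Of the nuclei of cluster 8, 38.3% were called doublets. It also had genes high in cluster 1, with Prdm16 at 256 CPM, Zic1 at 173, Zic4 at 89.2 and Meis2 at 264 CPM. In cluster 9 (22 Prlr-rich nuclei), with the oligodendrocyte genes Mobp, Mag and Mog among its leading genes, 82.5% were called doublets. Over all Prlr-rich nuclei 12.1% were called doublets against 10.5% of Prlr-free nuclei. Choroid plexus positive nuclei, with at least 2 UMIs summed over 5 genes (Ttr, Folr1, Kl, Clic6 and Kcnj13), were 16.9% against 10.5%.

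Prlr was low in several GABAergic clusters and in glia. In cluster 28, led by Vip and seen in no Prlr-rich nucleus, Prlr was at 0.330 CPM and 0.316% of eligible nuclei had a Prlr UMI, at a median of 8972 UMIs. The clusters led by Drd1 and by Adora2a and Drd2 had 1.25 and 1.74 CPM. In clusters 2 and 4 Prlr was at 16.8 and 12.2 CPM, with a Prlr UMI in 14.5% and 11.5% of eligible nuclei. Nuclei with at least 20 UMIs of a glial list had 6.26 CPM for oligodendrocytes (2.05% with a Prlr UMI, median 3004 UMIs), 4.53 CPM for astrocytes (2.45%, median 4493 UMIs) and 1.08 CPM for oligodendrocyte precursors (0.860%, median 6984 UMIs). Free RNA was not measured here. Nuclei with at least 20 UMIs of the choroid plexus list had the highest Prlr, at 302 CPM with 57.8% carrying a Prlr UMI.

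**Figure D2:**
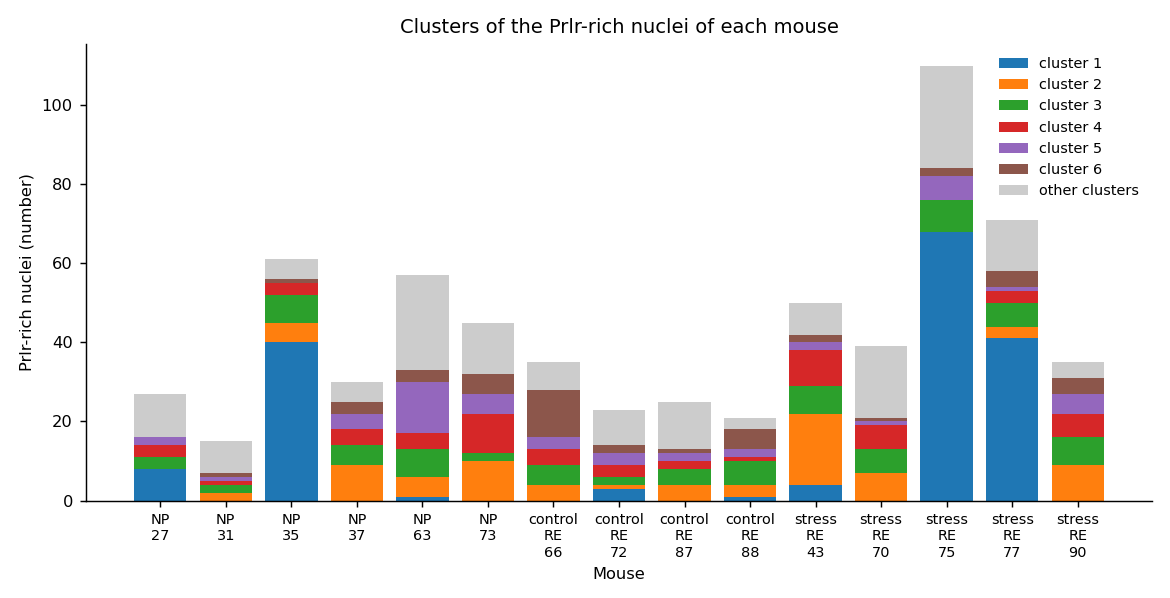
Number of Prlr-rich nuclei in each mouse, stacked by cluster, with mice ordered by group. Cluster 1 (lowest segment) fills 40, 68 and 41 of the nuclei of NP mouse 35, stress RE mouse 75 and stress RE mouse 77 and at most 8 in any other mouse, while cluster 3 is present in all 15 mice.

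The first question was whether Prlr-rich nuclei made up a different share of Gad-positive nuclei after reproductive experience or postpartum stress. Control RE mice had the lowest group mean, with shares of 4.17%, 3.85%, 3.60% and 3.38% (mean 3.75% ± 0.340, SD, n = 4). Stress RE mice had 5.59%, 6.99%, 6.54%, 7.37% and 5.89% (6.47% ± 0.740, n = 5), all above every control RE mouse. NP mice ranged from 3.73% to 8.98% with a median of 5.68% (5.98% ± 1.70, n = 6) and overlapped both. Control RE mice were lower than NP mice, with a difference of -2.23 percentage points (exact permutation test over mice, two-sided, p = 0.0286, adjusted p = 0.0429 over 6 tests), and -3.97 and -1.77 within batches 2 and 3. Stress RE minus control RE was 2.72 points (exact p = 0.0159, the smallest these group sizes allow, adjusted p = 0.0381), and 3.01 and 2.18 within batches 2 and 3. Stress RE minus NP was 0.494 points (exact p = 0.571), and -0.962 and 0.413 within batches. As a share of all nuclei with at least 1000 genes, the differences were -0.256, 0.470 and 0.214 points (exact p = 0.0190, 0.0159 and 0.134).

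The calls of control RE minus NP and stress RE minus control RE were lost without cluster 1 and at matched depth. Without cluster 1, chosen as an alternative after seeing the data, control RE minus NP was -1.45 points (exact permutation test, p = 0.219) and stress RE minus control RE 1.22 points (exact p = 0.222), and stress RE mice then ranged from 2.71% to 6.99% against 3.23% to 4.17% in control RE mice. After thinning of nuclei to 5000 UMIs, NP mice averaged 2.03% ± 0.995, stress RE mice 2.84% ± 1.12 and control RE mice 1.71% ± 0.466, each below its unthinned share, and the differences were -0.323 points (exact p = 0.610) and 1.14 points (exact p = 0.111). The ratio of stress RE to control RE means was 1.73 before and 1.67 after thinning, and that of control RE to NP means 0.627 and 0.841. The median depth of eligible nuclei averaged 10752 UMIs in control RE mice, 11694 in NP mice and 12440 in stress RE mice.

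Within cluster 3 alone, also chosen after seeing the data, the stress RE mice stayed above the control RE mice in share but not in Prlr level. The share of cluster 3 nuclei that were Prlr-rich was 12.7%, 17.1%, 14.8%, 11.5% and 18.4% in stress RE mice (14.9% ± 2.89, n = 5) and 10.4%, 3.23%, 10.8% and 10.9% in control RE mice (8.84% ± 3.75, n = 4). The groups did not overlap, and they differed by 6.09 points (exact permutation test, two-sided, p = 0.0159). NP mice had 11.1% ± 5.26 (4.17% to 17.9%, n = 6) and overlapped both. The Prlr level of the same cluster, which uses no threshold on Prlr, did overlap, at 26.3 to 56.7 CPM in control RE mice (40.6 CPM ± 12.7), 30.2 to 68.5 CPM in stress RE mice (50.6 CPM ± 16.5) and 20.7 to 69.2 CPM in NP mice (46.0 CPM ± 18.02), and stress RE minus control RE was 10.1 CPM (exact permutation test, p = 0.333). Each share rests on 2 to 8 Prlr-rich nuclei of 30 to 62.

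The level of Prlr over all eligible nuclei, which does not use the threshold on Prlr, gave the same order of groups with overlap. This measure was added after seeing the data. Control RE mice had 14.1, 14.1, 15.3 and 17.9 CPM (15.3 CPM ± 1.80), stress RE mice 14.3, 19.2, 31.9, 34.1 and 17.1 CPM (23.3 CPM ± 9.06), and NP mice 13.2 to 29.4 CPM with a median of 21.7 (21.4 CPM ± 7.49). The 2 highest stress RE values came from the mice that held most of cluster 1. No difference passed the test, with -6.03 CPM for control RE minus NP (two-sided exact permutation test, p = 0.229), 8.01 CPM for stress RE minus control RE (exact p = 0.111) and 1.98 CPM for stress RE minus NP (exact p = 0.697). Without cluster 1 the group means were 16.4, 14.3 and 14.8 CPM in NP, control RE and stress RE mice.

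**Figure D3:**
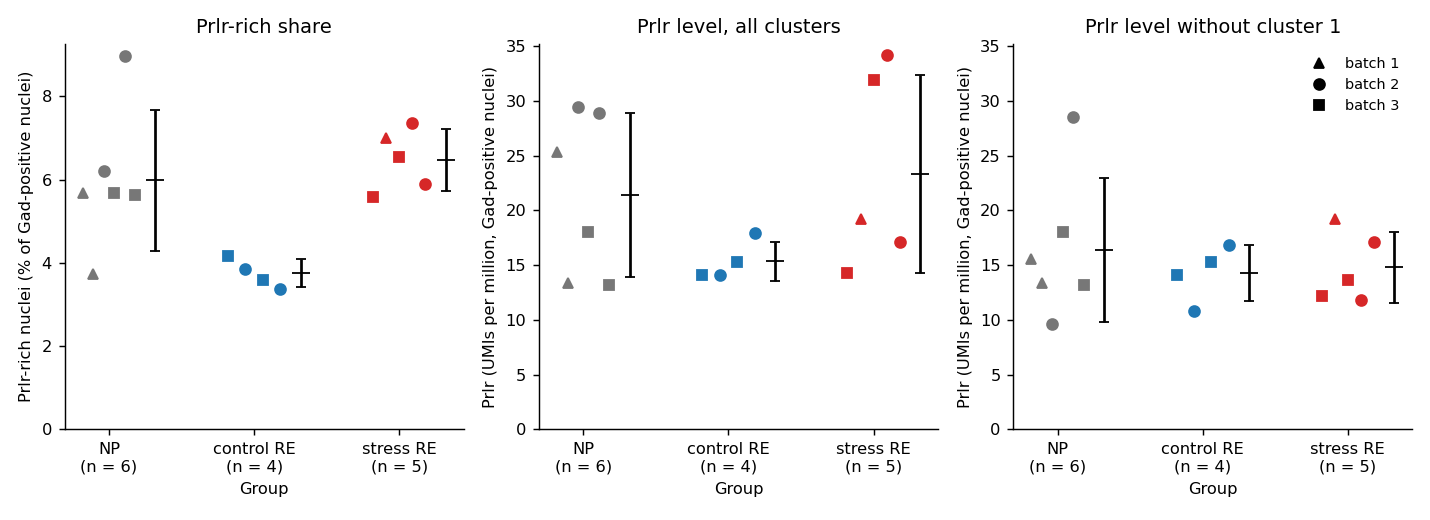
Share of eligible Gad-positive nuclei that were Prlr-rich in percent (left) and Prlr level of all eligible nuclei in CPM with and without cluster 1 (middle and right), 1 point per mouse with the symbol giving the batch, and the mean with the SD beside the points. The 5 stress RE mice (5.59% to 7.37%) sit above the 4 control RE mice (3.38% to 4.17%) in the left panel, and the Prlr levels of the 3 groups overlap in the other panels.

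The second question was what else distinguishes Prlr-rich from Prlr-free nuclei. UMIs were summed per mouse and class and compared within mice in all 15 mice. At an adjusted p under 0.05 by edgeR's quasi-likelihood test, 423 of 12065 genes were higher in Prlr-rich nuclei (3.51%) and 493 were lower (4.09%), 916 in all (7.59%). With a log2 fold change of at least 1 as well, 85 were higher (0.705%) and 138 lower (1.14%). The 15 mice moved the same way for 105 genes (0.87%), and the levels of both classes did not overlap for 7 genes (0.058%). Without cluster 1 the counts were 264 higher and 299 lower, of which 210 and 260 were among the genes called with it. The classes hold clusters in different proportions, so these differences include those between clusters as well as those inside them.

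Among called genes that were higher in every mouse and reached 20 CPM in Prlr-rich nuclei (32 genes), the highest fold change was that of Zic1 (chromosome 9, 91358058 to 91365810), a zinc finger transcription factor gene. Zic1 ranged from 5.82 to 179 CPM with a median of 20.4 in Prlr-rich nuclei and from 1.72 to 18.7 CPM with a median of 5.73 in Prlr-free nuclei (log2 fold change 2.69, SE 0.35, edgeR adjusted p = 3.00e-05). Its 4 highest Prlr-rich values, 146 to 179 CPM, came from NP mice 27 and 35 and stress RE mice 75 and 77, the mice with the most cluster 1 nuclei. The log2 fold change without cluster 1 was 1.70, in a fit that kept cluster 8, where Zic1 was at 173 CPM. Tacr1 (chromosome 6, 82402334 to 82560104), the receptor of substance P, ranged from 12.4 to 81.5 CPM (median 25.4) against 2.96 to 21.2 CPM (median 9.68), with a log2 fold change of 1.54 (SE 0.17) and 1.61 without cluster 1. Hcrtr2, a receptor of the orexin peptides, ranged from 21.6 to 112 CPM (median 48.3) against 12.8 to 36.2 CPM (median 20.2), with a log2 fold change of 1.34 (SE 0.17). For both receptors the highest Prlr-free mice lay inside the range of the Prlr-rich sums.

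Further genes higher in every mouse were 2700069I18Rik (log2 fold change 1.61), Zfp521 (1.37), Cdh18 (1.29), Grk5 (1.29), Pld5 (1.16), Plcb4 (1.11), Cacna1g (0.98), Camk2d (0.98) and Necab2 (0.88). Cdh18 encodes a cadherin adhesion molecule and stood at 734 CPM ± 350 against 279 CPM ± 77.9 (SD, n = 15). Plcb4, a phospholipase C that acts below G protein-coupled receptors, was at 267 CPM ± 101 against 120 CPM ± 29.9. Grk5, a kinase that desensitizes such receptors, was at 145 CPM ± 108 against 51.1 CPM ± 6.36. Cacna1g, a T-type calcium channel, was at 52.4 CPM ± 27.6 against 25.5 CPM ± 7.77. The antisense RNA 2700069I18Rik (chromosome 3, 5177586 to 5220841, minus strand) overlaps the start of Zfhx4 (5218526 to 5415857, plus strand), and whether the counting used strand was not given in the sources used here. Necab2 lost its call without cluster 1 (adjusted p = 0.151 by edgeR), and the other 11 kept theirs.

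Among called genes that were lower in every mouse and reached 20 CPM in Prlr-free nuclei, the largest log2 fold change was that of Col19a1 (chromosome 1, 24261890 to 24587472), a collagen gene, at 13.3 to 104 CPM (median 24.2) in Prlr-rich and 119 to 406 CPM (median 279) in Prlr-free nuclei, with no overlap between classes (log2 fold change -2.79, SE 0.17). Stk32a, a kinase gene, was at 0 to 21.8 CPM against 29.3 to 124 CPM (log2 fold change -2.70), and Rgs12, a regulator of G protein signalling, at 0 to 18.01 CPM against 20.6 to 73.1 CPM (-2.04), again without overlap. Cnr1, the cannabinoid receptor of the brain, was at 44.0 CPM ± 46.6 against 159 CPM ± 35.3 (log2 fold change -1.94). The remaining genes named by the same rule were the cyclic nucleotide phosphodiesterases Pde1c (-2.25) and Pde5a (-1.99), Pdzrn3 (-1.95) and Tll1 (-1.86). All 8 stayed lower without cluster 1, in a fit that kept clusters 17, 25 and 28. Col19a1, Rgs12, Cnr1 and Pdzrn3 were among the leading genes of cluster 17, which held 4 Prlr-rich of 578 eligible nuclei. Tll1 was a leading gene of cluster 25 (1 of 489) and Pde5a of cluster 28 (0 of 316).

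**Figure D4:**
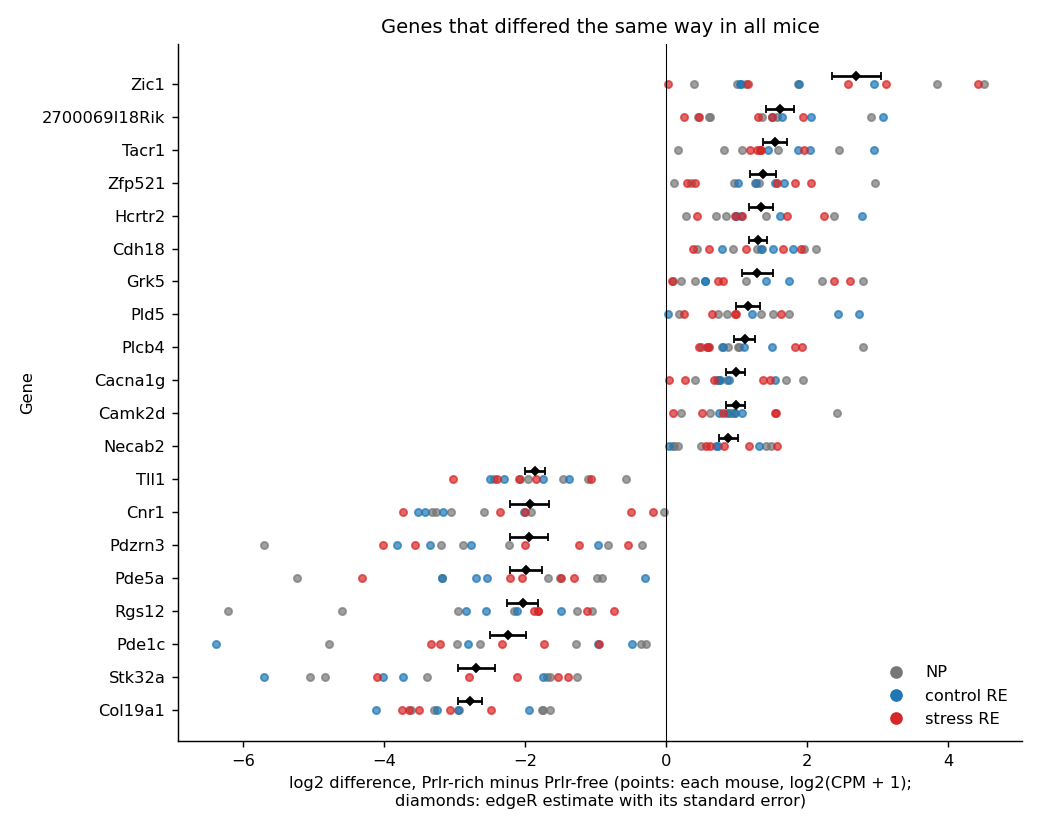
Log2 difference between Prlr-rich and Prlr-free nuclei for the 20 named genes, with 1 point per mouse, log2(CPM + 1), coloured by group, and the edgeR estimate with its standard error as a diamond. All points of the upper 12 genes lie above 0 and all points of the lower 8 lie below it, and the points of Zic1 spread from near 0 to over 4.

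No gene of prolactin signalling passed the test between the classes. Of 20 listed genes 14 were tested, and 0 were higher and 0 lower by edgeR (median log2 fold change -0.03 against -0.01 over all genes tested). Jak2, the receptor's kinase, was at 40.7 CPM ± 12.3 in Prlr-rich and 47.8 CPM ± 13.8 in Prlr-free nuclei (log2 fold change -0.24, SE 0.10, adjusted p = 0.137). Stat5b was at 48.4 CPM ± 13.2 and 41.3 CPM ± 6.28 (log2 fold change 0.15, SE 0.12), whereas Stat5a averaged 0.365 CPM in Prlr-rich nuclei and was not tested. The hormone gene Prl was counted at an average of 0.0485 CPM in Prlr-rich nuclei. Irs1, an adaptor of insulin and cytokine receptors, was at 49.0 CPM ± 15.4 and 40.3 CPM ± 6.75 (log2 fold change 0.25, adjusted p = 0.146), and the adaptor Grb2 at 78.3 and 69.7 CPM (0.17, adjusted p = 0.0706). Clusters with more Slc32a1 than Slc17a7 were also fitted alone, a choice made after seeing the data. There 1 gene of the list was higher (Irs1, edgeR adjusted p = 0.00567) and 2 were lower (Jak2, adjusted p = 0.0220, and Stat3, adjusted p = 0.0182). That fit called more genes in all than the main fit, with 547 higher and 647 lower against 423 and 493.

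Among related hormone receptors, Ghr was the exception. Ghr, the growth hormone receptor and a class I cytokine receptor like Prlr, was higher in Prlr-rich nuclei in 14 of 15 mice, at 62.96 to 385 CPM (median 126) against 75.6 to 120 CPM (median 88.8), with a log2 fold change of 0.77 (SE 0.16, edgeR adjusted p = 0.00299) and 0.54 without cluster 1. Its 3 highest values, 326 to 385 CPM, were those of the 3 mice that held most of cluster 1. The other 5 tested genes of the list were not called, with Il6st, the shared receptor chain of the interleukin 6 family, at 25.5 and 23.4 CPM, Lifr at 25.0 and 26.9 CPM, Cntfr at 21.6 and 23.0 CPM, Insr at 124 and 128 CPM and Igf1r at 231 and 235 CPM in Prlr-rich and Prlr-free nuclei.

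Steroid and thyroid hormone receptors split. Of 6 tested genes 2 were higher and 1 lower by edgeR. Pgr, the progesterone receptor, was higher in 14 of 15 mice, at 37.1 CPM ± 7.00 against 29.5 CPM ± 3.05 (log2 fold change 0.29, SE 0.08), a call that was lost without cluster 1 (adjusted p = 0.119). Thrb, a thyroid hormone receptor, was lower, at 302 CPM ± 141 against 407 CPM ± 54.2 (log2 fold change -0.53, SE 0.11). Esr1, the oestrogen receptor alpha, was at 9.27 CPM ± 6.54 against 9.46 CPM ± 4.02 over all clusters. The corticosteroid receptor genes Nr3c1 (93.2 and 97.0 CPM) and Nr3c2 (941 and 889 CPM) were not called.

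Neuropeptide genes were lower or not called. Only 10 of 26 listed genes were tested. Of those 10, 0 were higher and 7 were lower (Vip, Tac1, Penk, Pdyn, Sst, Npy and Cck), with a median log2 fold change of -0.87. Vip averaged 0.686 CPM in Prlr-rich and 12.7 CPM in Prlr-free nuclei, lower in all 15 mice, and Penk, the enkephalin precursor, 5.50 and 26.7 CPM. Without cluster 1, Pdyn, Cck and Npy lost their calls (edgeR adjusted p = 0.0533, 0.369 and 0.264). Of peptide receptors, Tacr1 and Hcrtr2 were higher as above, Oprd1, the delta opioid receptor, was lower (12.4 CPM ± 7.21 against 28.2 CPM ± 5.08, log2 fold change -1.13), and the other 6 of 9 tested were not called.

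Genes that make and load GABA were mostly not called, whereas 6 of its receptor genes were. Of 9 tested genes of GABA synthesis, transport and the Dlx factors, 0 were higher and 1, Dlx6os1, was lower (130 CPM ± 63.9 against 199 CPM ± 52.0). Slc32a1 was at 39.3 CPM ± 20.6 against 31.9 CPM ± 11.6 (log2 fold change 0.26, SE 0.12, adjusted p = 0.231 by edgeR). Of 12 tested GABA-A receptor subunit genes 5 were higher and 1 lower, where 3.51% and 4.09% of all genes tested were. In the Slc32a1 clusters alone 7 were higher and 2 lower. That fit called more genes in all, with 547 higher and 647 lower against 423 and 493. Gabrg1 had the largest difference, at 39.7 CPM ± 44.3 against 7.28 CPM ± 2.58 (log2 fold change 2.26, SE 0.36), and Gabrg3 was at 1912 CPM ± 608 against 1196 CPM ± 233 (0.63, SE 0.10). Gabra2 and Gabra5 were higher by 0.36 and 0.30 on the log2 scale, and Gabrd, the subunit of extrasynaptic receptors, was lower (-0.62), and without cluster 1 the calls of Gabra2 (edgeR adjusted p = 0.213) and Gabrd (adjusted p = 0.0817) were lost. Among ion channels, Cacna1g, Trpc5 and Scn9a were higher and Kcnc2, a fast potassium channel, was lower (356 CPM ± 179 against 709 CPM ± 181), of 13 tested, and Scn9a lost its call without cluster 1 (adjusted p = 0.0920).

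Of the dopamine genes 3 could be tested. Slc18a2, the vesicular monoamine transporter, was at 31.1 CPM ± 36.4 against 9.14 CPM ± 5.19 (log2 fold change 1.53, SE 0.28), a call lost without cluster 1 (edgeR adjusted p = 0.289). Drd2 was lower in the fit and in 9 of 15 mice (14.3 CPM ± 9.99 against 32.4 CPM ± 41.8, log2 fold change -1.11).

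The tested transcription factor genes of the hypothalamic and thalamic list leaned upward. Only 9 of 27 listed genes were tested, in a fit where 3.51% of all genes tested were higher and 4.09% lower. Of those 9, 4 were higher and 1, Meis1, was lower. Besides Zic1 these were Zfhx3, at 86.1 to 742 CPM (median 502) against 70.8 to 232 CPM (median 106) and higher in 14 of 15 mice (log2 fold change 1.87, SE 0.17), Tcf7l2 (108 CPM ± 65.1 against 43.1 CPM ± 19.7, 1.16) and Zfhx4 (190 CPM ± 68.5 against 108 CPM ± 21.0, 0.76), and all of these were also called without cluster 1. The septal and amygdala list had Prdm16 higher (63.6 CPM ± 96.1 against 6.36 CPM ± 4.63, log2 fold change 2.74) and Foxp2 and Tshz1 lower of 8 tested. Prdm16 leads cluster 1, and its log2 fold change without that cluster was 1.56. That fit kept cluster 8, where Prdm16 was at 256 CPM.

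Lists of striatal and forebrain interneuron genes leaned downward. Of 5 tested striatal projection genes 4 were lower, among them Rarb (32.9 CPM ± 24.1 against 226 CPM ± 283) and Rgs9, which were lower in 12 and 10 of 15 mice. Of 8 genes of interneurons from the medial ganglionic eminence 6 were lower, with Sox6 at 30.8 CPM ± 24.8 against 100 CPM ± 22.1. From the list of the caudal eminence Adarb2, Reln and Cnr1 were lower and Lamp5 was higher (37.9 CPM ± 19.4 against 18.8 CPM ± 5.09, log2 fold change 0.90, SE 0.17), of 6 tested. Cluster 3, with Lamp5 at 157 CPM, also had Lhx6 at 105 CPM. Without cluster 1 the striatal list had 2 lower genes, and Bcl11b lost its call (edgeR adjusted p = 0.0626), while the list of the medial eminence had 5, without Pvalb (adjusted p = 0.0504). Tshz1 of the septal and amygdala list also lost its call (0.240).

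Markers of other cell types were counted in both classes. The 9 choroid plexus genes were all detected. They summed to 80.4 to 531 CPM (median 260) in Prlr-rich and 105 to 369 CPM (median 146) in Prlr-free nuclei. By edgeR 0 of 5 tested genes were called. In Prlr-rich nuclei the control RE mice had sums of 158 to 279 CPM, the stress RE mice 98.7 to 417 CPM and the NP mice 80.4 to 531 CPM. Without choroid plexus positive nuclei (by Ttr, Folr1, Kl, Clic6 and Kcnj13), stress RE minus control RE in the share was 2.21 points (exact permutation test, p = 0.0159). The oligodendrocyte list summed to 63.02 to 578 CPM against 173 to 555 CPM, the astrocyte list to 94.5 to 439 CPM against 195 to 324 CPM, the microglia list to 4.20 to 76.4 CPM against 15.8 to 72.2 CPM and the list of oligodendrocyte precursors to 13.1 to 126 CPM against 61.1 to 147 CPM. Ependymal, leptomeningeal and endothelial lists stayed under 10 CPM in both, and Cldn5 was at 0 in Prlr-rich nuclei. Of these lists only the precursors' held called genes, with Pdgfra and Cspg4 lower. Of 5 excitatory genes tested 0 were called, and without cluster 1 the fit called 1 higher. The single immediate early gene called of 5 was Nr4a3, which was lower, and its call was lost without cluster 1 (adjusted p = 0.0867 by edgeR). In that fit 1 other gene of the list was called lower.

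Inside clusters the contrast between Prlr-rich and Prlr-free nuclei took other forms. The values are pooled over nuclei, the clusters were made from these genes and the genes were picked after their values were seen, so they are a description with no test. In cluster 3, 77 Prlr-rich nuclei were set against 533 Prlr-free ones. Sox5, a transcription factor gene, was at 646 CPM against 175 and higher in 15 of 15 mice. Esr1 was at 50.1 CPM (60 UMIs) against 5.16 CPM (34 UMIs) and higher in 12 mice and lower in 2. Kcnd2, a potassium channel gene, was at 502 CPM against 1338 and lower in 15 of 15 mice, and Adarb2 (1023 against 2942 CPM) and Reln (312 against 724 CPM) were lower in 14. Prox1 (90.1 against 34.9 CPM) and Ghr (161 against 84.8 CPM) were higher in 13 mice, while Nxph1 was at 3809 and 3984 CPM. Over all clusters Esr1 averaged 9.27 and 9.46 CPM in the classes, and in clusters 2 and 4 it was at 0.349 and 0.725 CPM.

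The same Esr1 contrast can be counted from the other side, which adds no separate evidence. In cluster 3, 50 nuclei had an Esr1 UMI and 20 of them were Prlr-rich (40.0%). Of the 621 without an Esr1 UMI, 57 were Prlr-rich (9.18%). The nuclei are pooled over mice, so these shares are a description with no test. The nuclei with an Esr1 UMI were also deeper, with a median of 16088 against 11526 UMIs. The part of depth in this contrast was not tested.

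In cluster 1, where 4 mice had at least 10 nuclei, 166 Prlr-rich nuclei were set against 59 Prlr-free ones. Zic4 (199 against 99.8 CPM), Zic1 (272 against 201 CPM), Slc18a2 (142 against 74.5 CPM) and Ndnf (160 against 34.6 CPM) were each higher in all 4. Trhr, the receptor of thyrotropin-releasing hormone, had 80 UMIs in the Prlr-rich and 0 in the Prlr-free nuclei. Cpa6, the leading gene of the cluster, was at 1278 against 507 CPM and also higher in all 4, and Cdh18 was at 1716 against 787 CPM and higher in 3. Reln (83.5 against 213 CPM) and Sst (16.9 against 95.8 CPM) were lower in all 4, and Nxph1 (199.6 against 571 CPM) in 3. Ghr was at 459 and 487 CPM, Meis2 at 1028 and 1066 CPM and Prdm16 at 361 and 325 CPM, with mice in both directions for each.

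**Figure D5:**
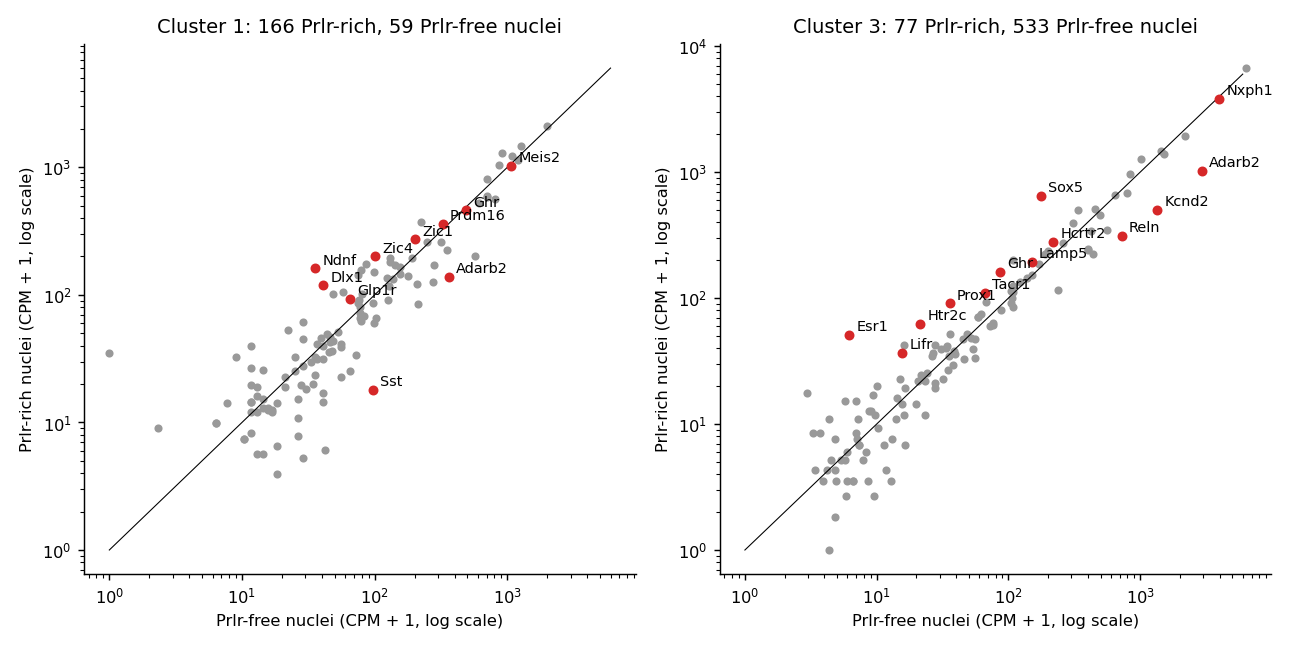
Levels of listed genes in Prlr-rich against Prlr-free nuclei of cluster 1 (left) and cluster 3 (right), pooled over nuclei, in CPM + 1 on log axes, with the line of equal levels and some genes named in red. Most genes lie near the line, while Sox5 and Esr1 lie above it and Adarb2, Reln and Kcnd2 below it in cluster 3, and Ndnf and Zic4 lie above it in cluster 1.

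The third question was whether gene levels inside Prlr-rich nuclei differed between the groups. By edgeR, 0 of 8067 genes passed an adjusted p under 0.05 for control RE minus NP, stress RE minus control RE or stress RE minus NP (0% in each). At an unadjusted p under 0.05 there were 334 (4.14%), 504 (6.25%) and 199 (2.47%). DESeq2 gave 0, 2 and 0 genes. The 2 genes were Plxdc2 and Sox5, with log2 fold changes of -0.77 and -1.07 for stress RE minus control RE (DESeq2 adjusted p = 0.0475 for both, edgeR adjusted p = 0.558).

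Sox5 in Prlr-rich nuclei stood at 274, 372, 252 and 410 CPM in control RE mice. Stress RE mice had 158, 108, 158, 183 and 167 CPM. Sox5 was picked by its p, and the share of all tested genes that separate these groups was not counted. NP mice had 151 to 369 CPM and overlapped both. Its level differed between clusters, at 646 CPM in the Prlr-rich nuclei of cluster 3, 436 in cluster 6, 164 in cluster 1 and 7.34 in clusters 2 and 4 together, and the mice held these clusters in different proportions. The part of that mix in the group difference was not tested.

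Of the prolactin signalling list 11 genes were tested between groups, and 2, 3 and 1 had an unadjusted p under 0.05 in the 3 contrasts. Over all genes the shares were 4.14%, 6.25% and 2.47%. For control RE minus NP, Socs2 had a log2 fold change of -1.39 (SE 0.60, edgeR adjusted p = 0.999). Its stress RE minus control RE was 1.42 (SE 0.60, adjusted p = 0.787). Stat5b was at -0.60 for stress RE minus control RE, and Pik3r1 at -0.54 for stress RE minus NP. The level of Socs2 differed between clusters, at 44.5 CPM in the Prlr-rich nuclei of cluster 1 and 10.0 CPM in those of cluster 3. Of the 166 Prlr-rich nuclei of cluster 1, control RE mice held 4. The part of the cluster mix in the Socs2 differences was not tested. Irs1, with the smallest p, went the other way from Socs2. In Prlr-rich nuclei Irs1 was at 55.2, 73.8, 67.5 and 81.0 CPM in control RE mice. Stress RE mice had 45.3, 59.7, 33.6, 39.9 and 33.0 CPM and NP mice 32.04 to 48.2 CPM. For Irs1, control RE minus NP was 0.78 on the log2 scale (SE 0.20, edgeR adjusted p = 0.695), without overlap of mice. Stress RE minus control RE was -0.69 (SE 0.21, adjusted p = 0.756), and 1 stress RE mouse lay inside the control RE range. Neither difference passed the threshold, and the share of all tested genes that separate the groups was not counted.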

How the data were processed

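Single-nucleus RNA-seq was made from frozen dHF punches of 15 mice with 10x 3' chemistry. Per the file headers, the deposited matrices hold raw UMI counts of 32285 genes per barcode from Cell Ranger with an mm10 reference, filtered to called nuclei. The methods name version 7.1.0 and the headers 7.0.0, and whether counting used strand is not given in the sources used here. The correction for free RNA, doublet removal and normalization that the authors ran later are not part of these counts. The nuclei, gene lists and rules were chosen with earlier results of these data known. Doublets were scored with Scrublet within libraries (scanpy 1.11.5) at 0.8% of barcodes per 1000 barcodes, and were removed in an alternative. Gad-positive nuclei were clustered on 2000 variable genes without the 8 genes of the rule, 30 principal components, 15 neighbours and Leiden resolution 1, with libraries not joined. Shares were compared over mice by two-sided exact permutation tests with Benjamini-Hochberg adjustment over 6 tests. UMI counts were summed per mouse (at least 10 nuclei) and tested with edgeR 4.0.16 (filterByExpr, TMM, quasi-likelihood, adjusted p under 0.05), with the mouse as a block for Prlr-rich against Prlr-free nuclei, and DESeq2 1.42.0 as an alternative. Both fits were tested on simulated data.

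Named genes passed the test, moved the same way in every mouse and reached 20 CPM in the higher class, and the 12 highest and 8 lowest by log2 fold change were taken. Genes of 24 lists were counted in full, with values for those at 20 CPM in Prlr-rich nuclei or past the test, and the 10 leading genes were taken for clusters with at least 10% of the Prlr-rich nuclei. Other genes were named after their values were seen, and some genes are not reported here. Gene positions come from the GENCODE annotation of GRCm38. Intervals cover counting error only. Libraries held 40602582 to 96211264 UMIs. Alternatives covered the Prlr threshold, the minimum number of genes, depth, doublets, choroid plexus RNA, normalization, the filter, the tool, batch, and each mouse left out, and the alternatives on clusters were added after seeing the data.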

Additional observations from a re-analysis of the deposited data

Results flagged for a closer look

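Of 30 groups of values examined, 3 had a single mouse standing far from the rest, where chance gives about 1 in 20. In cluster 3, the share of Prlr-rich nuclei in control RE mouse 72 was 3.23%, against 10.4% in the next lowest of the 4 control RE mice. The number of Prlr-rich nuclei in cluster 1 was 40 in NP mouse 35, against 8 in the next highest of the 6 NP mice. The Prlr level of the Prlr-rich nuclei was 351 CPM in control RE mouse 88, against 199 CPM in the next highest control RE mouse, and follows from the selection on Prlr.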

How the results depend on the processing

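The labels link mice of different groups by batch alone and pair no single mice. The exact tests on shares and Prlr levels between groups permuted mice across batches and had no batch block, and the share differences within batches 2 and 3 stand beside the pooled ones. Within mice the main fit of Prlr-rich against Prlr-free nuclei has the mouse as a replicate block, and with no replicate block 317 genes were higher and 209 lower.

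The share of control RE minus NP lost its call with Prlr of at least 1 UMI (-2.21 points) or at least 3 UMIs (-1.49), after thinning to 5000 UMIs (-0.323), in clusters with Slc32a1 over Slc17a7 alone (-2.70), without cluster 1 (-1.45), in cluster 3 alone (-2.21) and in clusters 2 and 4 alone (-1.61). Leaving out 1 mouse gave -2.68 to -1.63 points (exact permutation p 0.0159 to 0.0714), and the call was lost without control RE mouse 87 (-2.18) or 88 (-2.11). Stress RE minus control RE lost its call after thinning (1.14 points), in the Slc32a1 clusters (2.42), without cluster 1 (1.22), without clusters 2, 4 and 10 (1.79) and in clusters 2 and 4 alone (2.48), and was 2.50 to 2.95 points without 1 mouse (exact permutation p 0.0286 to 0.0357). Stress RE minus NP, never called, turned in sign in the Slc32a1 clusters (-0.283), without cluster 1 (-0.229) and without clusters 2, 4 and 10 (-0.444), and was 0.0438 to 1.09 points without 1 mouse. The Prlr level of eligible nuclei for stress RE minus NP turned in sign without cluster 1 (-1.60 CPM), in the Slc32a1 clusters (-0.478), without choroid plexus positive nuclei (-0.154) and without stress RE mouse 75 (-0.169) or 77 (-0.722), and ranged from -0.722 to 4.25 CPM without 1 mouse. The causes were not tested.

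For Prlr-rich against Prlr-free nuclei, 264 genes were higher and 299 lower without cluster 1, and 876 were lower with no filter on low counts. After thinning to 5000 UMIs 346 were higher and 443 lower. Of these, 246 and 267 were among the 423 and 493 of the main fit. Leaving out 1 mouse gave 297 to 460 higher and 331 to 518 lower. With a log2 fold change past 1, 55 were higher with DESeq2, 219 higher and 324 lower with no filter, 143 higher and 224 lower in the Slc32a1 clusters (14 mice) and 43 higher without cluster 1, against 68 to 100 and 108 to 159 without 1 mouse. Of the 66 genes followed, 42 kept their call in every alternative that tested them and 0 turned in direction. Between groups, DESeq2 called 2 genes lower in stress RE than control RE, and edgeR called 0 in every alternative, with batch as a term and without each mouse in turn. With doublets removed the leading cluster held 30.2% of Prlr-rich nuclei. The group sums rest on 15 to 110 Prlr-rich nuclei per mouse.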
